A study of Mus musculus with 10 samples.

Results

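Metabotropic glutamate (mGlu) receptors are G-protein-coupled receptors that sense glutamate, the main excitatory transmitter of the brain, on a slower time scale than ion-channel receptors. Group I receptors act mostly on the postsynaptic side through Gq and phospholipase C, while group II and group III receptors act largely on presynaptic terminals through Gi/o proteins, which inhibit adenylyl cyclase and lower transmitter release. In the young cortex, mGlu5 is found on neurons and astrocytes and mGlu3 is also made by glia. The 6 mGlu receptor genes examined here were Grm5 (group I), Grm2 and Grm3 (group II), and Grm4, Grm7 and Grm8 (group III). They were picked out by gene symbol from a table of 18216 genes, and all 6 were among the 16781 genes tested.

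The question was whether transcripts of these receptors differ in the prefrontal cortex of mice with 1 working copy of Arid1b, which encodes a subunit of the chromatin remodeller BAF (SWI/SNF). RNA was sequenced from male C57BL/6N mice at postnatal day 10 (P10), 5 Arid1b heterozygotes in HT and 5 wild-type mice (WT), with 1 library per mouse. The HT mice carry, in every cell, a single germline allele made by CRISPR/Cas9 targeting of exon 5 that truncates the protein, and they were bred from heterozygous fathers and wild-type C57BL/6N mothers. No drug or other treatment is given in the labels for either group. The values are normalised counts, meaning estimated reads per gene divided by a size factor for each library, and the sequencing depth behind them is unknown. In bulk tissue, fewer cells of a type and less RNA per cell cannot be told apart.

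The Arid1b transcript had 1767 to 1987 normalised counts in the HT mice and 2662 to 3018 in the WT mice, so each library matched its genotype label. Its log2 fold change (HT minus WT, on log2 of the normalised count plus 1) was -0.59 (SE 0.05, adjusted p 9.96e-05 by limma). Markers of cortical glutamatergic neurons (among them Neurod6, Tbr1, Camk2a and Fezf2) were above 0 in every sample, the lowest value being 806 normalised counts for Fezf2. Markers of glia and of other regions mostly had higher HT means, though none passed adjustment. All 12 astrocyte markers, all 10 microglia markers, all 10 oligodendrocyte-lineage markers and 10 of 11 striatal markers had a higher HT mean, where 51.2% of all genes had a lower one. In the same order, 7, 3, 1 and 0 of these lists' genes were higher in HT at an unadjusted limma p under 0.05, where 4.71% of all genes were. All 7 olfactory bulb markers also had a higher HT mean, 1 of them at that p. The 12 astrocyte markers summed to 67186 to 91683 normalised counts in the HT mice and to 62251 to 72739 in the WT mice, and the highest sums were those of HT5 and HT2. In HT5 the sum rests in part on Gfap, the astrocyte filament gene, which had a normalised count of 13936 there and of 3072 to 5007 elsewhere (named after its values were seen). HT2 also had the largest mitochondrial share of normalised counts, at 8.43%, against 5.15% to 6.76% in the other 9 mice.

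None of the 6 receptor genes passed the threshold of an adjusted p under 0.05 (limma, Benjamini-Hochberg over 16781 genes), which 0.0179% of all genes passed. All 6 had a lower mean in HT mice than in WT mice, with HT means of 81.0% to 98.2% of the WT means. Grm8, the gene of a presynaptic group III receptor, had the lowest ratio, and its HT and WT values did not overlap. Grm2, the gene of a presynaptic group II autoreceptor, and Grm7, the gene of the most widespread group III receptor, followed at 89.5% and 88.3%. Grm5, Grm3 and Grm4 had HT means of 93.5%, 95.8% and 98.2% of the WT means.

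At an unadjusted limma p under 0.05 there were 2 of the 6 genes (Grm8 and Grm2), both lower in HT, where 4.52% of all genes tested were lower in HT by the same measure and 9.23% passed in either direction. Groups without overlap were found for 1 of the 6 (Grm8), against 1.62% of all genes, or 0.918% counting only those lower in HT. The median log2 fold change was -0.14 over the 6 receptor genes and -0.0035 over all genes tested, of which 51.2% had a lower HT mean. With only 6 genes, these counts describe the receptors and were not tested as a group.

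**Figure D1:**
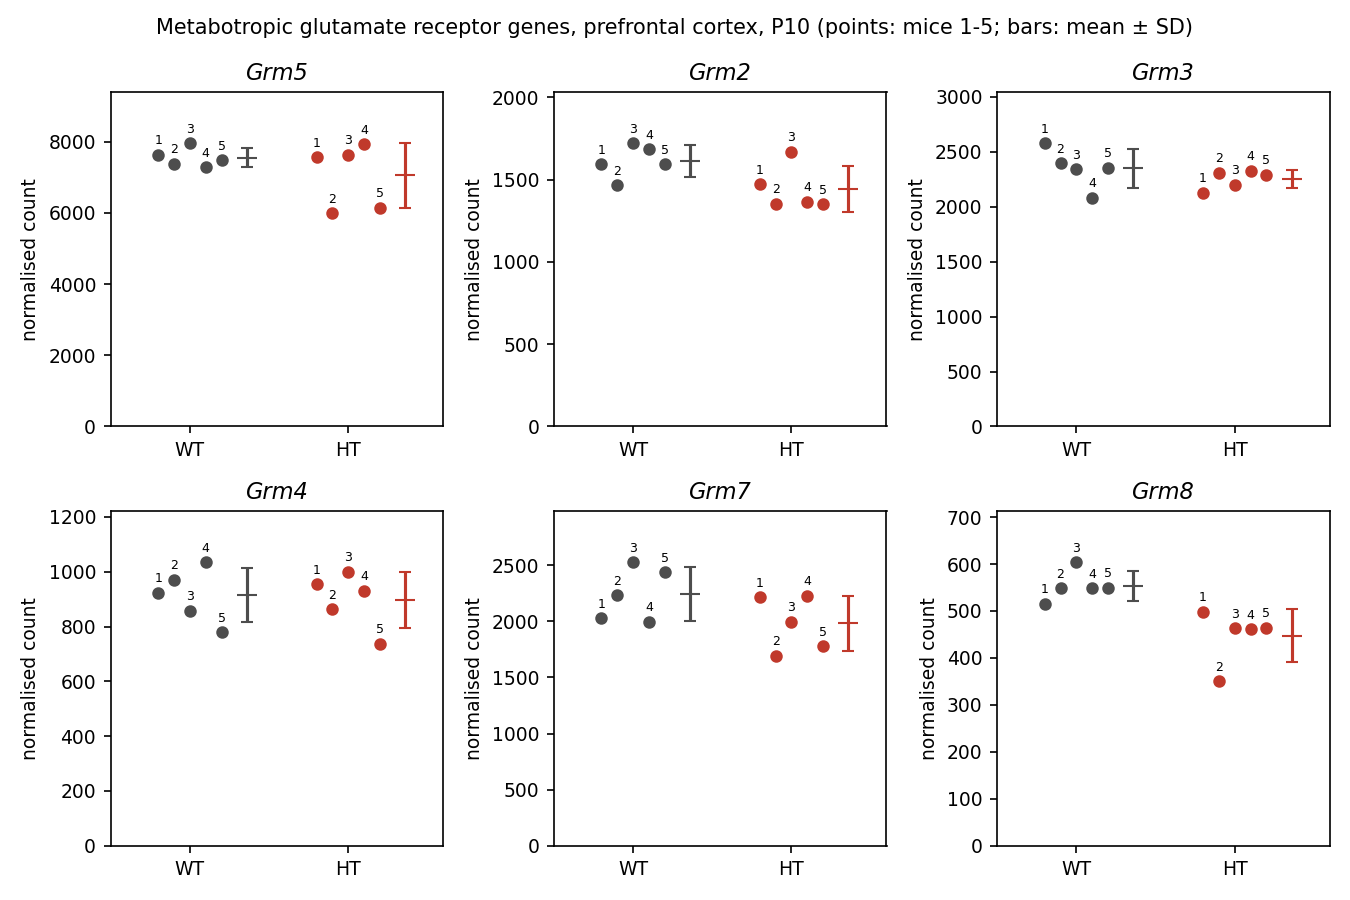
Normalised counts (vertical axes, from 0) of the 6 mGlu receptor genes in 5 WT and 5 HT mice, with each point a mouse labelled by its number and the bar beside each group its mean ± SD. Grm8 is the panel without overlap, with HT mice at 350 to 499 and WT mice at 515 to 604, while in the Grm5 panel HT2 and HT5 sit apart from the other HT mice.

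Upstream sequence is shown for 3 of the genes, because Grm8 and Grm2 had the smallest p-values of the family and Grm3 is the group II relative of Grm2. RefSeq start sites on GRCm38.p6 were given for 4 of the 6 genes (Grm2, Grm3, Grm7 and Grm8), as 7 windows in all. Each line holds the 250 bases before a start site, read 5′ to 3′ on the minus strand, at chr6:28135147-28135396 for Grm8 (the most upstream of its 3 start sites), chr9:106656110-106656359 for Grm2 and chr5:9725353-9725602 for Grm3. Capitals mark the GC box GGGCGG, searched on both strands.
Grm8: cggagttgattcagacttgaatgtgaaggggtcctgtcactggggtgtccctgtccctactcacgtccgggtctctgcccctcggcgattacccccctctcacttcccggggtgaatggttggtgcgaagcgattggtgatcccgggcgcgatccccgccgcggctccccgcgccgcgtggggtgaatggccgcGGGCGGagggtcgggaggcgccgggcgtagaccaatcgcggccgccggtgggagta
Grm2: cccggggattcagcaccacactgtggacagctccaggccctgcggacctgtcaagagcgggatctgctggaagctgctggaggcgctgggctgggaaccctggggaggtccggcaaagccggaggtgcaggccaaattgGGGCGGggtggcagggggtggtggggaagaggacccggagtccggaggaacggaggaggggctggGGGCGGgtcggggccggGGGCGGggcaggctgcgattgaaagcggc
Grm3: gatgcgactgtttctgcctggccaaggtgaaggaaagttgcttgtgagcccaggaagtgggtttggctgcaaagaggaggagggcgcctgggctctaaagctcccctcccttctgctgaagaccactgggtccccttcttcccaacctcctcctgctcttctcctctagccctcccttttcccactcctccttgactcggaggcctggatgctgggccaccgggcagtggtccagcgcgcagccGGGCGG

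A GC box, the site bound by Sp-family factors, occurred once in the printed Grm8 window, 3 times in the Grm2 window and once in the Grm3 window, and 32.7% of all 32851 promoter windows of the same length hold at least 1. The printed Grm8 window held 29 CpG dinucleotides, more than 93.2% of the windows did. The windows at the other 2 Grm8 start sites held 2 and 8 and had no GC box. In comparison, the Grm2 window held 16 and the Grm3 window 8, against a median of 6. The MEF2 motif, searched by its consensus on both strands, was found in none of the 7 receptor windows and in 2.92% of all windows. The E box CANNTG occurred in 1 of the 7 windows, at another Grm8 start site, against 66.2% of all windows, and the CRE core TGACG occurred in 1, also at a Grm8 start site, against 17.8%. These matches describe the letters of the windows and do not show binding by any factor.

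Group III receptors are described first, since Grm8 is among them. Grm8 (ENSMUSG00000024211, GRCm38 chromosome 6, 27275119 to 28135178, minus strand, protein-coding) encodes mGlu8, a receptor of glutamate terminals that is sensitive at low glutamate levels. Its normalised counts were 498.7 in HT1, 350.4 in HT2, 463.7 in HT3, 460.9 in HT4 and 464.7 in HT5. In the WT mice they were 515.5 in WT1, 547.9 in WT2, 603.7 in WT3, 548.1 in WT4 and 549.8 in WT5. Every HT value lay below every WT value, with a gap of 16.7 between HT1 and WT1, and HT2 lay far below the other HT mice. The means were 448 ± 56.5 in HT and 553 ± 31.8 in WT (SD, n = 5 each). On the log2 scale the difference was -0.31 (SE 0.09, 95% interval -0.50 to -0.12), and limma gave a p of 0.00369 before and 0.41 after adjustment over all genes. Over the 252 ways to assign the mice, the two-sided exact permutation p was 0.00794 (unadjusted), which is the smallest that 5 against 5 mice allow.

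The Grm8 difference was then read against the libraries that stand apart. Without HT2 the HT mean was 472 ± 17.9 (SD, n = 4), the log2 fold change was -0.23, and the groups still did not overlap. Without both HT2 and HT5 the 3 remaining HT mice had 461 to 499 normalised counts, again below all WT mice, and the log2 fold change was -0.22. With the astrocyte marker score of each mouse as a covariate it was -0.17, with an unadjusted limma p of 0.0863. The score, a mean of z-scores, was 1.41 in HT2 and 1.20 in HT5, against -1.02 to 0.39 in the other 8 mice. With the striatal score as a covariate the value was -0.30.

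Grm7 (ENSMUSG00000056755, GRCm38 chromosome 6, 110645581 to 111567230, plus strand, protein-coding) encodes mGlu7, which sits in the active zone of presynaptic terminals and responds only to high glutamate. Its normalised counts were 2218 in HT1, 1696 in HT2, 1996 in HT3, 2228 in HT4 and 1780 in HT5. The WT mice had 2030 in WT1, 2231 in WT2, 2528 in WT3, 1998 in WT4 and 2440 in WT5. All 5 HT values were below the WT mean and 3 were below the lowest WT value, but HT1 and HT4 lay within the WT range. The means were 1984 ± 244 in HT and 2245 ± 237 in WT (SD, n = 5 each). The log2 fold change of -0.18 (SE 0.09, 95% interval -0.37 to 0.01) had a limma p of 0.0599 before and 0.55 after adjustment, and the exact two-sided permutation p was 0.0952. Without HT2 and HT5 the log2 fold change was -0.06, and with the astrocyte score as a covariate it was -0.04.

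Grm4 (ENSMUSG00000063239, GRCm38 chromosome 17, 27422387 to 27521403, minus strand, protein-coding) encodes mGlu4, a presynaptic receptor best known from cerebellar parallel fibres, and it lies on the same chromosome as Arid1b. Its values were 955 in HT1, 863 in HT2, 999.6 in HT3, 930.0 in HT4 and 738 in HT5. The WT mice had 924 in WT1, 970.4 in WT2, 858 in WT3, 1034 in WT4 and 780.0 in WT5. The 2 ranges covered nearly the same span, and the means were 897 ± 102 in HT and 913 ± 98.6 in WT (SD, n = 5 each). On the log2 scale HT minus WT was -0.03 (SE 0.09, 95% interval -0.22 to 0.17), and limma gave an adjusted p of 0.93. Its sign was not fixed, since it was 0.08 without HT2 and HT5 and 0.08 with the astrocyte covariate, but -0.10 with the striatal score as a covariate (unadjusted p 0.101, adjusted p 0.56 by limma). The lowest Grm4 values of all were those of HT5, WT5 and WT3, the mice with the lowest striatal marker sums.

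Among the group II receptors, Grm2 (ENSMUSG00000023192, GRCm38 chromosome 9, 106643095 to 106656082, minus strand, protein-coding) encodes mGlu2, an autoreceptor that restrains glutamate release. Its normalised counts were 1474 in HT1, 1353 in HT2, 1671 in HT3, 1367 in HT4 and 1350 in HT5. They were 1596 in WT1, 1468 in WT2, 1723 in WT3, 1684 in WT4 and 1595 in WT5. Of the HT mice, 3 lay below the whole WT range, HT1 lay just above its lower end, and HT3 lay inside the WT range, below WT3 and WT4. The means were 1443 ± 137 in HT and 1613 ± 98.6 in WT (SD, n = 5 each). On the log2 scale the difference was -0.16 (SE 0.07, 95% interval -0.31 to -0.02), and limma gave a p of 0.0274 before and 0.51 after adjustment, and the exact two-sided permutation p was 0.0556. Without HT2 and HT5 it was -0.10 (unadjusted limma p 0.171) and with the astrocyte score as a covariate -0.04 (unadjusted limma p 0.501), so neither kept the unadjusted p under 0.05. Leaving out HT2, HT4, HT5, WT3 or WT4 alone also raised that p above 0.05. The fit without HT2 and HT5 has 3 HT mice and lacks the lowest HT values. All 12 astrocyte markers had a higher HT mean, so the score takes up part of the genotype difference.

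Grm3 (ENSMUSG00000003974, GRCm38 chromosome 5, 9485541 to 9725170, minus strand, protein-coding) encodes mGlu3, the group II receptor that astrocytes also express. Its normalised counts were 2128 in HT1, 2309 in HT2, 2199.9 in HT3, 2328 in HT4 and 2292 in HT5. The WT mice had 2581 in WT1, 2397 in WT2, 2341 in WT3, 2081 in WT4 and 2356 in WT5. In WT, 4 mice lay above all HT mice, while WT4 was the lowest of all 10. The HT values were close together, at 2251 ± 84.4 (SD, n = 5), against 2351 ± 179 (SD, n = 5) in WT. On the log2 scale HT minus WT was -0.06 (SE 0.06, 95% interval -0.18 to 0.06), and limma gave an adjusted p of 0.72. Without WT4 the difference was -0.10, and with 1 mouse left out it ranged from -0.10 to -0.03. In HT2 and HT5, the mice with the highest astrocyte marker sums, Grm3 stood within the range of the other HT mice. With the astrocyte score in the fit its log2 fold change was -0.13 (unadjusted limma p 0.0585), further from 0 than without it.

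Grm5 (ENSMUSG00000049583, GRCm38 chromosome 7, 87584168 to 88134907, plus strand, protein-coding) encodes mGlu5, the Gq-coupled receptor that drives long-term depression at many synapses and binds Homer scaffolds. Its normalised counts were 7572 in HT1, 5987 in HT2, 7636 in HT3, 7934 in HT4 and 6151 in HT5. The WT mice had 7641 in WT1, 7379.9 in WT2, 7965 in WT3, 7277 in WT4 and 7485 in WT5. HT1, HT3 and HT4 lay within the WT range and HT2 and HT5 lay well below it. The means were 7056 ± 913 in HT and 7549 ± 268 in WT (SD, n = 5 each), so the spread among HT mice was several times that among WT mice. On the log2 scale HT minus WT was -0.11 (SE 0.08, 95% interval -0.27 to 0.06), and limma gave an adjusted p of 0.64. Without HT2 and HT5 the HT mean was 7714 ± 193 (SD, n = 3) and the log2 fold change was 0.03, and with the astrocyte covariate it was 0.04.

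**Figure D2:**
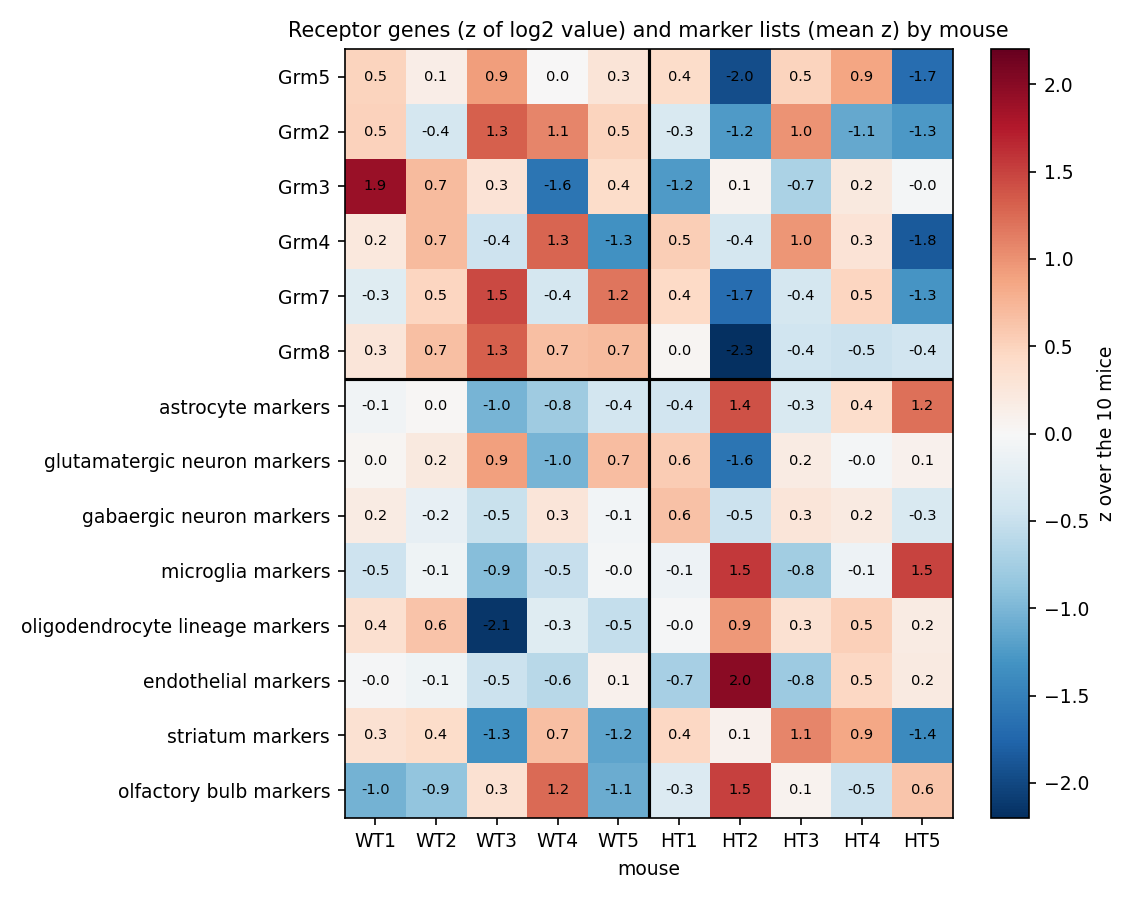
Values per mouse (columns) for the 6 receptor genes, as z-scores of log2(normalised count + 1) over the 10 mice, above the mean z-scores of 8 marker lists, with colour and number giving z. HT2 and HT5 have the highest astrocyte scores (1.41 and 1.20) and the lowest Grm5 and Grm7 values, whereas WT3 has the lowest astrocyte score (-1.02) and the highest values of 4 receptor genes.

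The extremes of the family fell on few mice. HT2 was the lowest of the 10 mice for 3 receptor genes (Grm5, Grm7 and Grm8), HT5 for 2 (Grm2 and Grm4) and WT4 for 1 (Grm3). WT3 was the highest for 4 of the 6 (Grm5, Grm2, Grm7 and Grm8). The glutamatergic neuron score was -1.61 in HT2, the lowest of all mice, and 0.10 in HT5, between HT4 and HT3. The microglia score was 1.55 in HT2 and 1.48 in HT5, against -0.93 to -0.05 in the other 8 mice. Each receptor gene was also set against the 8 marker scores over the 10 mice after group means were removed, with Pearson's r taken as a description. Grm8 had an r of -0.87 with the endothelial score, 0.81 with the glutamatergic neuron score and -0.72 with the astrocyte score. The largest for the other genes were -0.92 for Grm5 with microglia, -0.81 for Grm2 with astrocytes, 0.78 for Grm7 with glutamatergic neurons, 0.57 for Grm3 with astrocytes and 0.94 for Grm4 with striatum. HT2 held the highest endothelial score (1.98) and the lowest glutamatergic neuron score. The part of cell makeup in the receptor values was not tested beyond the covariate fits.

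The 10 microglia markers summed to 11011 to 15378 normalised counts in HT and 10722 to 12337 in WT. The 10 oligodendrocyte-lineage markers summed to 65801 to 89765 in HT and 38667 to 92337 in WT. The 8 GABAergic neuron markers summed to 20252 to 21848 in HT and 20226 to 21904 in WT. Among them, Npy had an HT mean of 112% of WT with groups that did not overlap (unadjusted p 0.0016, adjusted p 0.39 by limma), and Vip had 89.3% (unadjusted p 0.0491, adjusted p 0.54), both named here after their values were seen. The 8 endothelial markers summed to 7727 to 10930 and 7938 to 8617. The 11 striatal markers (among them Drd2, Adora2a and Penk) summed to 7736 to 23765 in HT and 6810 to 18766 in WT. Of these mice 3 stood apart, HT5 at 7736, WT3 at 6810 and WT5 at 7157, with 15310 or more in the other 7. The 7 olfactory bulb markers summed to 862 to 3755 in HT and 711 to 3613 in WT. Here HT2 (3755) and WT4 (3613) stood apart, with 2107 or less in the other mice. None of these markers was at 0 in any mouse, and the lowest value was 1.83, for Tbx21 of the olfactory bulb list. The astrocyte list held 7 genes higher in HT at an unadjusted limma p under 0.05, where 4.71% of all genes were, and none passed after adjustment.

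Levels can be set side by side between receptor genes only per length. On the scale of normalised count per kb of exonic length, averaged over the 10 mice, Grm3 stood at 755 ± 46.5 (SD, n = 10) and Grm5 at 713 ± 66.9, and these neighbours overlapped. Grm7 followed at 359 ± 45.2 and Grm2 at 312 ± 29.4, which also overlapped. Grm4 stood at 151 ± 15.9 and Grm8 at 50.6 ± 7.11, and each was apart from its neighbours in every mouse. With the median transcript length in place of the exonic length, the level of Grm5 was 2663 per kb and the highest of the 6, and Grm2 (712) stood above Grm7 (676), so both orders rest on the length used, while Grm8 stayed the lowest at 177.

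Summed over the 6 genes, the level per kb was 2254 ± 149 in HT and 2428 ± 84.0 in WT (SD, n = 5 each). The ranges overlapped, with HT at 2086 to 2398 and WT at 2305 to 2531. Grm8 made up 2.01% ± 0.21 of this sum in HT and 2.30% ± 0.12 in WT, and Grm5 made up 30.4% ± 1.99 and 30.4% ± 0.38. The sum and these shares rest on the exonic length and were not taken with the median transcript length.

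**Figure D3:**
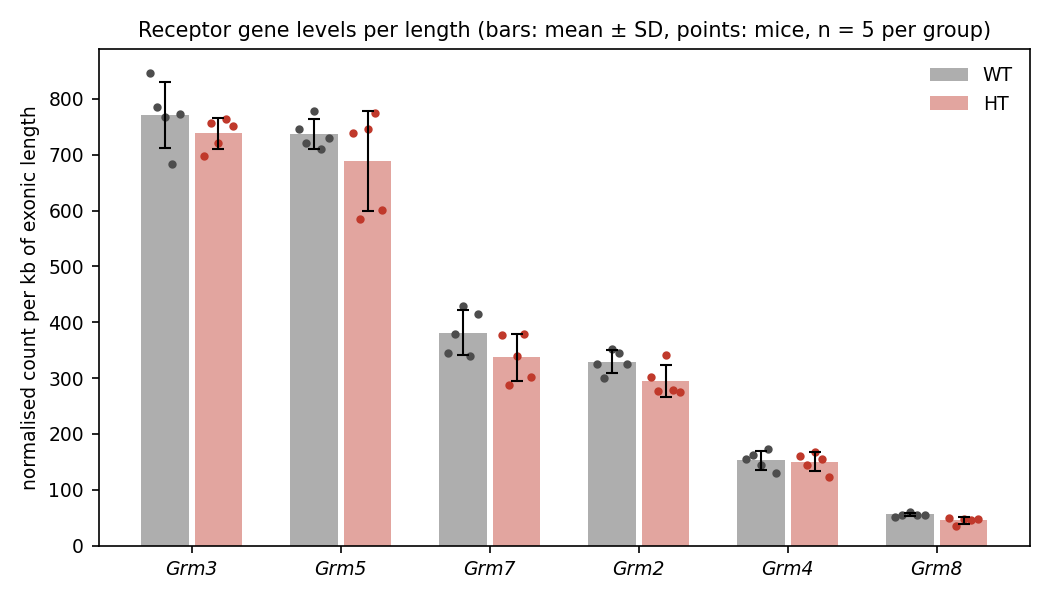
Level of each receptor gene as normalised count per kb of exonic length, with bars for group means from 0, error bars for SD and points for the 5 mice of each group. Grm3 (755 over all mice) and Grm5 (713) are the highest and Grm8 (50.6) the lowest.

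The genes that work with these receptors were taken from a list of 50, all of which were tested. None passed the adjusted threshold, and the smallest limma adjusted p was 0.47. A lower HT mean was found for 39 of the 50 genes, with a median log2 fold change of -0.07, beside 51.2% of all genes. At an unadjusted p under 0.05, 5 were lower in HT (4.52% of all genes) and 4 were higher (4.71% of all genes), and none of the 50 had groups without overlap.

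Receptor partners were the first part of the list, and 8 of 9 had a lower HT mean, none at an unadjusted p under 0.05. Homer1, the scaffold that ties mGlu5 to the postsynaptic density and to internal calcium stores, had 5171 ± 680.2 normalised counts in HT and 5640 ± 566 in WT (SD, n = 5 each). HT minus WT on the log2 scale was -0.13 (SE 0.09), and limma gave an adjusted p of 0.65. With 1 mouse left out the difference ranged from -0.19 to -0.05, and without HT2 and HT5 together it nearly vanished. Pick1, a PDZ protein that binds mGlu7, differed by -0.09 on the log2 scale (SE 0.06, adjusted p 0.61 by limma). Elfn1, a postsynaptic adhesion protein that recruits mGlu7 to terminals on interneurons, had -0.09 (SE 0.07, adjusted p 0.67 by limma).

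In the Gq arm, which mGlu5 uses, 8 of 10 genes had a lower HT mean. Prkca, a protein kinase C gene, had 5799 in HT1, 5242 in HT2, 5755 in HT3, 6161 in HT4 and 5607 in HT5, against 6093 to 6888 in the WT mice. In HT, 4 mice lay below the whole WT range, and the difference on the log2 scale was -0.16 (SE 0.05), and limma gave a p of 0.0072 before and 0.47 after adjustment. Prkcb, its close relative, had -0.13 (SE 0.05, adjusted p 0.51 by limma) and Gnaq, the Gq alpha subunit, had -0.14 (SE 0.06, adjusted p 0.51 by limma). Plcb1, the main phospholipase C of forebrain neurons, had -0.10 (SE 0.07, adjusted p 0.66 by limma). Its value ranged from -0.14 to -0.03 with 1 mouse left out. It turned positive without HT2 and HT5 and with the astrocyte score as a covariate.

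The other members of the Gq arm at an unadjusted p under 0.05 were phospholipase C genes with higher HT means. Plcb3 had 605 in HT1, 877 in HT2, 615 in HT3, 720.0 in HT4 and 876 in HT5, against 537 to 619 in WT. No HT mouse was below the WT mean, and HT2 and HT5 were again the mice farthest out. HT minus WT on the log2 scale was 0.34 (SE 0.11, adjusted p 0.47 by limma), or 0.13 with the astrocyte score as a covariate. Plcb4 differed by 0.12 on the log2 scale (SE 0.05, adjusted p 0.52 by limma), and all 5 HT mice were above the WT mean.

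In the Gi/o arm, which group II and group III receptors use, 11 of 13 genes had a lower HT mean and none had an unadjusted p under 0.05. Gnao1, the abundant Go alpha subunit of brain, had 33155 ± 2040 in HT and 35720 ± 1448 in WT (SD, n = 5 each), with 4 HT mice below the lowest WT mouse. HT minus WT on the log2 scale was -0.11 (SE 0.06, adjusted p 0.56 by limma). Of 7 genes for kinases, arrestins and regulators that end the signal, 5 had a lower HT mean. Rgs7, which speeds the turning off of Gi/o proteins, differed by -0.09 on the log2 scale (SE 0.04, adjusted p 0.54 by limma).

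Genes that supply and clear glutamate were split, with 4 of 8 higher and 4 lower in HT. Slc1a3, the astrocyte glutamate transporter GLAST, had 18369 in HT1, 27961 in HT2, 17622 in HT3, 20840 in HT4 and 23122 in HT5, against 16671 to 19106 in WT. HT minus WT on the log2 scale was 0.23 (SE 0.10, adjusted p 0.52 by limma), and 0.00 with the astrocyte score as a covariate. Slc1a2, the other astrocyte transporter (GLT-1), had 0.13 (SE 0.08, adjusted p 0.62 by limma) and -0.01 with that covariate. Both are astrocyte genes and the score is a mean over astrocyte genes, so their fall with this covariate was largely set in advance.

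Slc17a8, the vesicular glutamate transporter VGLUT3, had the largest fold change of the list. It had 470.3 in HT1, 305 in HT2, 532 in HT3, 493 in HT4 and 360.3 in HT5, against 296 to 349 in the WT mice. In HT, 4 mice lay above all WT mice and HT2 lay among them. On the log2 scale the difference was 0.42 (SE 0.13), and limma gave a p of 0.00787 before and 0.48 after adjustment. HT2 and HT5 held the lowest HT values of this gene, and without them the difference was 0.65. That fit, chosen after seeing the data, gave a limma adjusted p of 0.023, past the threshold (0.023 to 0.76 over all its alternatives). Leaving out the lowest HT values raises the HT mean by itself, so this p is not taken as a call. With the astrocyte covariate the difference was 0.67 with a limma adjusted p of 0.51. Arc, an activity-regulated gene translated after mGlu5 activation, differed by -0.30 on the log2 scale (SE 0.11, adjusted p 0.49 by limma).

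**Figure D4:**
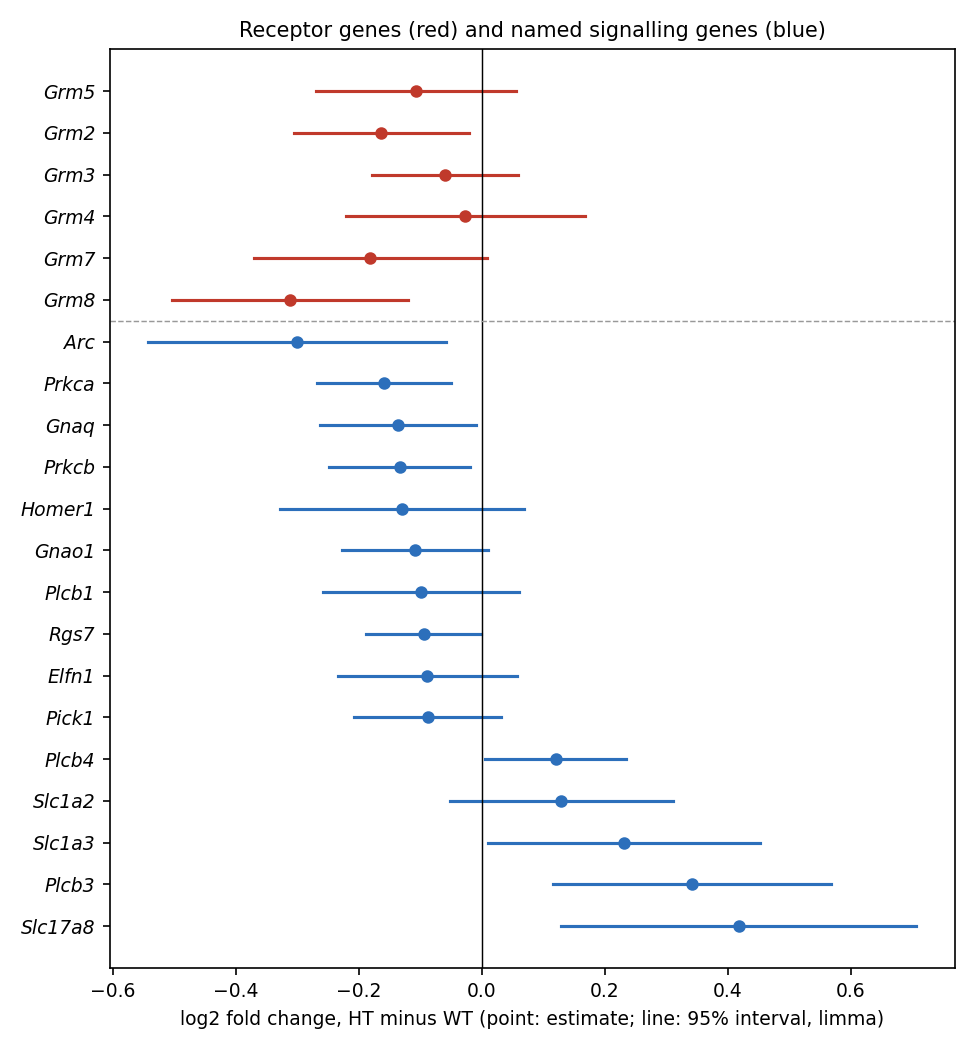
Log2 fold change, HT minus WT, on the log2(normalised count + 1) scale (horizontal axis) for the 6 receptor genes in red and 15 named signalling genes in blue, with points for estimates and lines for 95% intervals. The intervals of Grm8 (-0.50 to -0.12) and Grm2 (-0.31 to -0.02) leave out 0 before any adjustment. So do those of 5 signalling genes lower in HT and 4 higher, several of which were named for their small p. No gene shown passed the adjusted threshold.

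Across mice, the receptors did not all vary together. After each group mean was removed, Pearson's r of log2 values over the 10 mice was 0.79 between Grm5 and Grm7, 0.70 between Grm7 and Grm8 and 0.65 between Grm5 and Grm8. Grm3 had an r of -0.46 to -0.07 with each of the other 5. These values are descriptions, since the mice share libraries and size factors across genes.

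The genes most like each receptor over the 10 mice were taken as the 3 highest Pearson r of log2 values among 13887 genes, again after each group mean was removed, so a gene can be alike within the groups and not share the genotype difference. High values are the result of that choice. Mob4, Cog5 and Tbc1d30 were most like Grm5 (r 0.99, 0.97 and 0.97). For Grm8 they were Epha7, Alg2 and Pitpna (0.99, 0.99 and 0.98), and for Grm7 they were Slc39a10, Wdr37 and Eps15 (0.97, 0.97 and 0.97). Grm2 was most like Sec22c, Ssb and Nyap1 (0.97, 0.97 and 0.93). Grm3 was most like Nnt, Nrp1 and Zfp69 (0.97, 0.95 and 0.95). Grm4 was most like Adra2c, Gpr6 and Lrrc10b (0.96, 0.96 and 0.96), of which Gpr6 is on the striatal marker list.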

How the data were processed

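Per the labels and the study's methods, poly-A RNA of each mouse was made into stranded paired-end libraries. The authors estimated transcript abundance with Salmon 1.1.0 on GRCm38 with GC bias correction, summed it to genes with tximport and divided it by DESeq2 1.30.1 size factors. The deposited values are this normalised signal per gene (normalised count) and not whole reads. The share of low values lying within 0.05 of a whole number of steps reached 40.1% at most, so depth is unknown and no count test was run. Genes with low totals had been removed by a filter that is not stated. Symbols and positions came from GENCODE M21 (18205 of 18216 identifiers matched).

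After log2(value + 1), limma 3.58.1 (R 4.3.3, eBayes with a variance trend, two-sided) was run on 16781 genes whose mean reached 10, with genotype as the only factor and Benjamini-Hochberg adjustment at 0.05. Fold changes on this scale understate those of low genes. Nothing in the labels gives litters, so p-values measure the spread between these mice. The method was tested on simulated data with independent genes and shifts larger than any receptor difference here. That test does not cover differences of this size or genes that vary together. Marker scores are mean z-scores over a list. Genes named were the receptors, Arid1b, of the signalling list the 8 smallest p-values and 8 fixed genes (Homer1, Pick1, Elfn1, Gnaq, Gnao1, Plcb1, Slc1a2, Slc1a3), and per receptor the 3 most-alike genes with a mean of at least 50 (highest r after group means were removed). Rgs7 was named because it is in a count. Members and lists were chosen with earlier results of these data known. Shared 31-base words with transcripts of other genes made up 0% to 1.69% of 5 receptor genes and 8.97% of Grm2, whose exons overlap an antisense gene over 470 bases. The Salmon strand setting is not given in the sources used here. Tables and permutation tests used Python 3.11.15, pandas 2.3.3 and scipy 1.17.1, and plots used matplotlib 3.10.9.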

Additional observations from a re-analysis of the deposited data

Results flagged for a closer look

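In each group of 5 mice, a mouse was singled out when its gap to the nearest other mouse exceeded 0.71 of the group's range. Of 60 groups examined (6 receptor genes, Arid1b, 15 signalling genes and 8 marker scores in each genotype), 2 passed, where chance gives about 3.

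HT2 had 350 normalised counts of Grm8, while the remaining HT mice had 461 to 499, a ratio of 0.745. For the glutamatergic neuron markers, HT2 scored -1.61 and the remaining HT mice -0.05 to 0.56, a ratio of 0.72.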

How the results depend on the processing

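In all 23 alternative fits, 0 of the 6 receptor genes passed the adjusted threshold, and Grm8, Grm2, Grm3 and Grm7 kept their direction. Grm8 ranged from -0.35 to -0.17 on the log2 scale, with an unadjusted limma p under 0.05 in 22 of the 23, and adjusted p from 0.35 to 0.98. Grm2 ranged from -0.22 to -0.04, with an unadjusted p under 0.05 in 15 of the 23 and p up to 0.501. Grm4 was 0.0085 with sample quality weights, 0.082 with the astrocyte covariate and 0.080 without HT2 and HT5, and Grm5 was 0.040 with that covariate and 0.031 without HT2 and HT5. With 1 mouse left out, Grm4 ranged from -0.082 to 0.042 (above 0 without HT5 or without WT4), Grm5 from -0.15 to -0.05 and Grm8 from -0.35 to -0.23. The number of receptor genes at an unadjusted p under 0.05 was 2, became 1 with sample weights, 0 with the astrocyte covariate and 1 without HT2 and HT5, and was 1 to 3 with 1 mouse left out. It was 1 without HT2, without HT5 or without WT3. For the signalling list that number was 9, and it became 5 without the variance trend, 2 with the astrocyte covariate and 5 with the olfactory bulb covariate. It was 2 without HT2 and HT5, when 1 gene, Slc17a8, passed adjustment with its lowest HT values left out. With 1 mouse left out it was 4 to 13, the lowest without HT5 (4), HT2 (5) or WT5 (5). In the main fit 9.23% of all genes passed in either direction. That share was not taken for the alternative fits, so these changes in count cannot be told apart from a shift over all genes. Plcb1 was 0.027 with the astrocyte covariate and 0.027 without HT2 and HT5, Slc1a2 was -0.011 with that covariate, and Homer1 was 0.0014 without HT2 and HT5. Per kb of median transcript length the levels were 2663 for Grm5, 712 for Grm2, 288 for Grm4, 676 for Grm7 and 177 for Grm8. Arid1b kept its call throughout, from -0.61 to -0.56 with 1 mouse left out.

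The replicate numbers 1 to 5 belong to different mice in both groups. The deviations of same-numbered mice had a mean correlation of 0.04 (-0.04 to 0.10 per pair), against -0.01 for others. With the replicate number as a block, Grm8 was -0.31 (adjusted p 0.50), and 2 receptor and 9 signalling genes had an unadjusted p under 0.05, so no call changed. The fit without HT2 and HT5 and the olfactory bulb covariate were chosen after seeing the data. Depth is unknown, so the spread between mice is the only measure of precision. The cause of these shifts was not tested.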
